A study of Mus musculus with 30 samples.

Results

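Liver gene expression of mice on the CD-HFD diet that received aspirin with clopidogrel was set against that of mice on the same diet that received sulindac. CD-HFD is a choline-deficient high-fat diet that produces fatty liver inflammation (NASH) and hepatocellular carcinoma (HCC). The members were taken from the array titles: 6 arrays of aspirin with clopidogrel (AspClo) and 10 arrays of sulindac (Sulin), 16 of the 30 arrays in the series. The other arrays were 9 CD-HFD livers under vehicle and 5 healthy livers of mice on chow. By their titles, 4 of the vehicle livers came from mice with HCC and fibrosis and 5 from mice without HCC. Both drug treatments were prophylactic, all tissue was non-tumour liver and each array stands for 1 mouse. The labels give no dose, duration, age, strain or sex, and the controls on CD-HFD carry the same diet as both drug groups.

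Aspirin acetylates the cyclooxygenases and so blocks the synthesis of prostaglandins and of the thromboxane that activates platelets. Clopidogrel is a prodrug that the liver converts to an inhibitor of P2Y12, the platelet receptor for ADP. Sulindac is a non-steroidal anti-inflammatory prodrug that inhibits the cyclooxygenases reversibly and is reduced and oxidised at its sulfoxide in the liver. Many liver genes for steroid and drug metabolism differ between male and female mice, because the pattern of growth hormone secretion differs between the sexes and acts on hepatocytes through STAT5.

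Each of 17097 genes was read from 1 probe set on a one-colour Affymetrix array, and all levels are log2 of the deposited intensity. Over all 45141 probe sets, the arrays had medians between 24.1 and 24.6 intensity units and pairwise correlations of log2 values between 0.974 and 0.996. Probe sets are not independent replicates. Of the defining transcripts of liver, albumin (Alb) lay between 13.53 and 13.68 log2 units in AspClo arrays and between 13.50 and 13.63 in Sulin arrays, and transthyretin (Ttr) averaged 13.12 in AspClo and 13.10 in Sulin arrays. Skeletal muscle markers averaged between 4.40 and 4.45 log2 units in AspClo arrays and up to 7.01 in Sulin arrays, where Acta1 of the muscle filament read 10.30 in Sulin 17 and 4.58 to 4.96 in the other 9. The comparison described below gave 136 calls without Sulin 17.

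The AspClo arrays fell into 2 kinds by their sex chromosome genes. Xist, the RNA that coats the inactive X chromosome in female mammals, read 11.21, 11.01, 10.95 and 11.08 log2 units in AspClo 61, 64, 58 and 63, and 4.80 and 4.56 in AspClo 60 and 62, against 4.66 to 4.98 in the 10 Sulin arrays. Eif2s3y, a Y-linked translation initiation factor gene, had the opposite pattern, with 5.17, 5.21, 4.14 and 4.59 log2 units in the first 4 and 9.09 and 9.10 in AspClo 60 and 62, against 8.77 to 9.14 in Sulin arrays. The Y-linked histone demethylase genes Kdm5d and Uty followed it. All 26 other arrays of the series were low in Xist. The 4 AspClo arrays are called Xist-high here and AspClo 60 and 62 Xist-low, and differences from sulindac are given for each kind beside the pooled one. In these sex chromosome genes the Xist-high arrays had the pattern of female tissue, and the Xist-low and Sulin arrays that of male tissue. The labels give no sex, and these 2 kinds are not groups of the study. No Sulin array was Xist-high, so drug and sex cannot be told apart in the 4 Xist-high arrays.

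With all 6 AspClo arrays, 150 of 17097 genes (0.877%) passed an adjusted p of 0.05 in limma, 72 of them higher with aspirin and clopidogrel (0.421%) and 78 lower (0.456%). Among the named genes the largest differences were those of Sult2a2, Cyp3a41a, Xist and Slc22a26, and they were carried by the 4 Xist-high arrays. Other differences had the same sign in both kinds of AspClo array, among them those of Adgrv1, Osbpl3 and the non-coding RNA Dleu2. None of these passed the test with AspClo 60 and 62 alone. AspClo 60 and 62 kept the sign of the pooled difference in 146 of the 150 genes and more than 0.5 of its size in 94. In 45 genes both of their values lay inside the range of the Sulin arrays. The 150 genes were selected on a difference that includes AspClo 60 and 62 and uses the same Sulin arrays. Agreement in sign and size is therefore partly built in, and it does not show that both kinds of array respond alike. The groups did not overlap at all in 27 of the 150 genes, 12 higher and 15 lower with aspirin and clopidogrel, and in 56 of all 17097 genes (0.328%), 21 higher (0.123%) and 35 lower (0.205%). Of all genes, 1841 had an unadjusted p under 0.05.

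**Figure D1:**
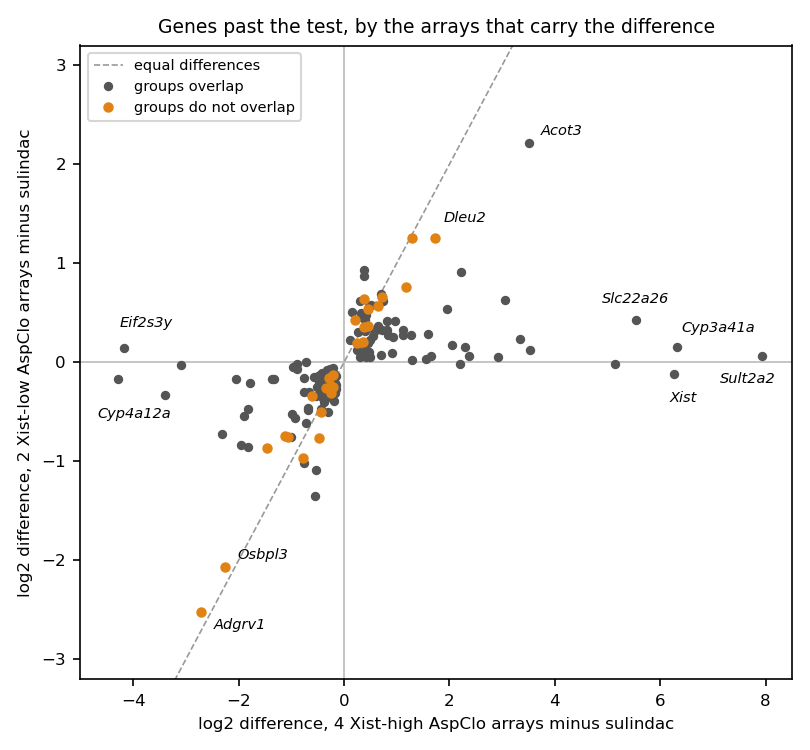
Log2 difference from sulindac of the 150 genes past the test, in the 4 Xist-high AspClo arrays (horizontal axis) and in the 2 Xist-low AspClo arrays (vertical axis); the dashed line marks equal differences, and the 27 orange points are genes whose AspClo and Sulin arrays do not overlap. Sult2a2, Cyp3a41a, Slc22a26 and Xist lie far to the right with vertical values between -0.12 and 0.43, while Adgrv1, Osbpl3 and Dleu2 lie near the dashed line.

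Of 19 measured female-biased liver genes, 9 were called higher in AspClo than in Sulin arrays and none lower. Over all genes 0.421% were called higher. The list median was 1.65 on the log2 scale against -0.0028 over all genes. The median was 2.46 in the Xist-high arrays and 0.05 in AspClo 60 and 62. Sult2a2, a sulfotransferase for hydroxysteroids and bile acids, read 12.20 to 12.44 log2 units in the Xist-high arrays and 4.39 and 4.43 in AspClo 60 and 62, against 4.22 to 4.51 in Sulin arrays. The log2 difference was 5.31 over all 6 arrays (SE 0.90, adjusted p = 0.00515), 7.93 in the Xist-high and 0.07 in the Xist-low arrays, and the Sulin values lay at the low end of the intensity scale. Cyp3a41a, a steroid-hydroxylating cytochrome P450, read 11.82 to 12.02 log2 units in the Xist-high arrays and 5.77 and 5.79 in AspClo 60 and 62, against 5.36 to 5.85 in Sulin arrays (adjusted p = 0.00515). Slc22a26, a member of the organic anion transporter family, read 9.54 to 10.45 in the Xist-high arrays and 5.21 and 4.66 in the Xist-low ones, with a sulindac range of 4.25 to 5.43 log2 units (adjusted p = 0.00182). Cyp3a16, Cyp3a44, Prom1 and Cux2, a transcriptional repressor of male-biased genes in female mouse liver, had the same split, with differences from sulindac of 1.56 to 5.15 in Xist-high and -0.02 to 0.16 in Xist-low arrays. Hao2, a peroxisomal hydroxyacid oxidase, differed by 3.35 and 0.24 in the Xist-high and Xist-low arrays. In fits without 1 array, Hao2 lost its call in 8 of 16 and Prom1 in 2.

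**Figure D2:**
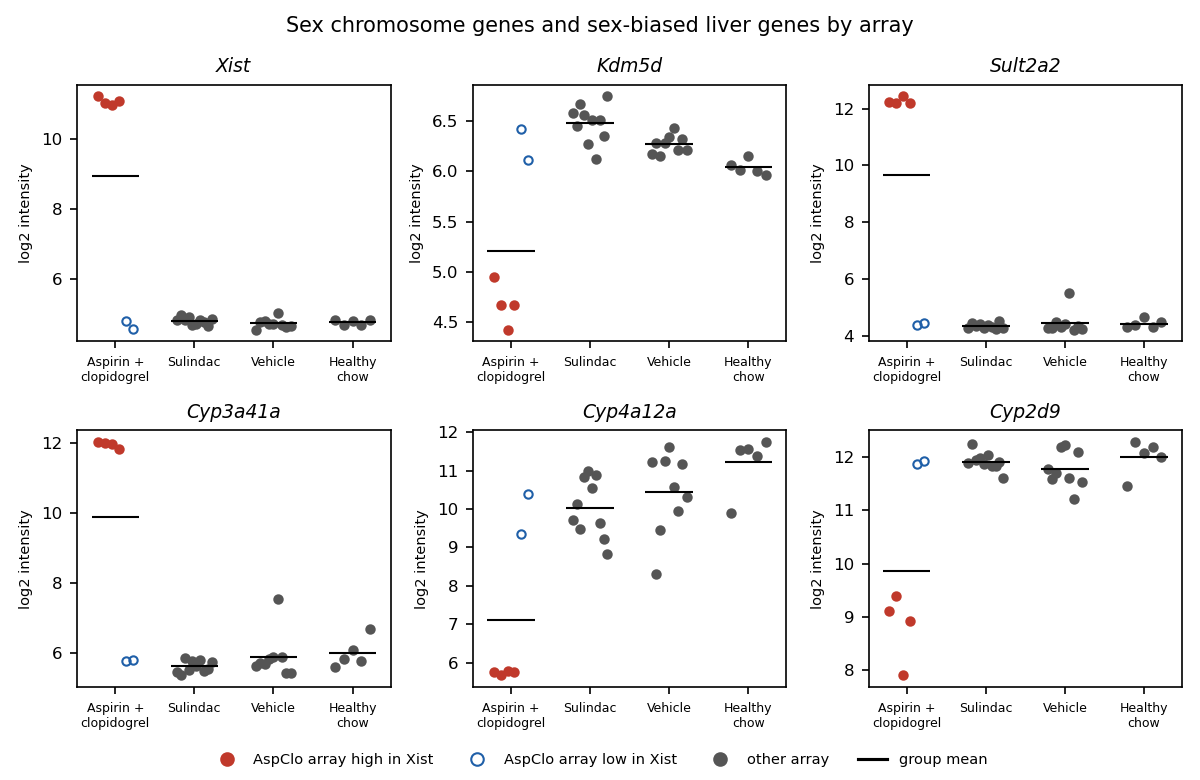
Log2 intensity of Xist, the Y-linked Kdm5d, the female-biased Sult2a2 and Cyp3a41a and the male-biased Cyp4a12a and Cyp2d9 in each array, by treatment; each point is 1 array, filled red points are Xist-high and open blue points Xist-low AspClo arrays, and bars are group means. The 4 red points stand apart from every other array in Xist (10.95 to 11.21) and Sult2a2 (12.20 to 12.44), and the 2 open points lie among the sulindac, vehicle and healthy arrays.

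The windows of 250 bases before the start site show how alike the 2 leading Cyp3a genes are and where a STAT5-type motif occurs. In the first pair capitals mark bases that are not identical in their alignment, 18 in each, and in the others capitals mark the motif. The sequences are from RefSeq on GRCm38.p6, all 5′ to 3′ on the strand of the gene: Cyp3a41a at chr5:145720137-145720386 on the minus strand, Cyp3a16 at chr5:145469724-145469973 on the minus strand, Slc22a26 at chr19:7802668-7802917 on the minus strand and Igfals at chr17:24877981-24878230 on the plus strand.
Cyp3a41a: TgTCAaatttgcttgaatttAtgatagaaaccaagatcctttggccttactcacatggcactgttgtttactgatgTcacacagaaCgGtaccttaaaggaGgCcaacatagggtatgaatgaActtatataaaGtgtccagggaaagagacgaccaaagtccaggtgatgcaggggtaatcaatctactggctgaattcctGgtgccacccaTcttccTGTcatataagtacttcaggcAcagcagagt
Cyp3a16: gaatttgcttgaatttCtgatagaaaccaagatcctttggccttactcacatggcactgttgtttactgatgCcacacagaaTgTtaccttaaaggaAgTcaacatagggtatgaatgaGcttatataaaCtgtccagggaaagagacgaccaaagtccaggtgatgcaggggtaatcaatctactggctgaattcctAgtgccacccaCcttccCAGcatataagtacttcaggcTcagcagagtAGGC
Slc22a26: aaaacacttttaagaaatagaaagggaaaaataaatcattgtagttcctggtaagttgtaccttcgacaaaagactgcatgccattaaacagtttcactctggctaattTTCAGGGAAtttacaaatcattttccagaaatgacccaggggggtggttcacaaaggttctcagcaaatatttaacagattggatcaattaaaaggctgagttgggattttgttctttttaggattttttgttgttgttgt
Igfals: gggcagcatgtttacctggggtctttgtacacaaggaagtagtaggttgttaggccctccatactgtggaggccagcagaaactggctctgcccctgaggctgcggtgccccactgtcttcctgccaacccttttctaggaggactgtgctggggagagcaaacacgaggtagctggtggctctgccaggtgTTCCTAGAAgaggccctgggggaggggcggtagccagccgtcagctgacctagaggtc
The Cyp3a41a and Cyp3a16 windows were 92.8% identical, and each was 94.4% identical to that of Cyp3a44, and whether the probe sets of these neighbouring paralogues read each other's transcripts was not tested. The motif TTCNNNGAA, which reads the same on both strands, starts 141 bases before the start site of Slc22a26. Igfals has 3 start-site windows, and the one shown holds the motif 58 bases before its start site, another holds it 236 bases before and the remaining one does not hold it. It occurred in 7.02% of 32851 promoter windows, in 9.52% of the 21 windows of female-biased genes, in 10.5% of the 76 windows of genes that rose and in 6.67% of the 90 windows of genes that fell. A match is a description of the letters and not a binding site.

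Of 15 male-biased liver genes, 4 were called lower in AspClo than in Sulin arrays and none higher. Over all genes 0.456% were called lower. The median was -0.52 over the list, -1.03 in the Xist-high arrays and -0.01 in AspClo 60 and 62. Cyp4a12a, a fatty acid and arachidonic acid hydroxylase, read 5.66 to 5.78 log2 units in the Xist-high arrays and 9.34 and 10.38 in AspClo 60 and 62, against 8.82 to 10.99 in Sulin arrays (difference -2.91, SE 0.62, adjusted p = 0.0191). Cyp2d9, a testosterone hydroxylase, read 7.89 to 9.40 in the Xist-high and 11.87 and 11.92 in the Xist-low arrays, with 11.62 to 12.24 log2 units in Sulin arrays (adjusted p = 0.00759). Cyp4a12a lost its call in 4 of 16 fits without 1 array and Cyp2d9 in none. C6, a subunit of the complement membrane attack complex, differed by -1.79 over all 6 arrays (adjusted p = 0.00759), with -2.32 in the Xist-high and -0.72 in the Xist-low arrays. Gstp1, the pi-class glutathione transferase, averaged 12.48 ± 0.26 log2 units in AspClo and 12.92 ± 0.11 in Sulin arrays (SD, n = 6 and 10, adjusted p = 0.00616), with differences of -0.58 in the Xist-high and -0.15 in the Xist-low arrays.

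Several other called genes had the same dependence on the Xist-high arrays. Nt5e, the ectonucleotidase CD73 that turns AMP into adenosine, read 8.27 to 9.22 log2 units in the Xist-high arrays and 6.27 and 6.64 in the Xist-low arrays, against 4.77 to 6.64 in Sulin arrays (difference 2.25, SE 0.45, adjusted p = 0.0115). It was the 1 member called among 19 purinergic receptors and ectonucleotidases. Abcg2, a canalicular efflux transporter, read 8.91 to 9.11 in the Xist-high arrays and 9.87 and 10.51 in the Xist-low arrays, with a sulindac mean of 10.36 ± 0.16 log2 units (SD, n = 10, adjusted p = 0.00604). Nat8, an N-acetyltransferase, fell by 3.39 in the Xist-high and by 0.33 in the Xist-low arrays, and Arsa, the lysosomal arylsulfatase A, by 2.06 and 0.17. Nipal1, Eci3 and Trim24, a co-regulator of nuclear receptors, rose by 3.53, 2.37 and 1.96 in the Xist-high arrays and differed by 0.13, 0.06 and 0.54 in AspClo 60 and 62. Nipal1 lost its call in 6 of 16 fits without 1 array, Arsa in 3 and Nt5e in 1. On the X chromosome 6 of 597 genes passed the test, a share near the 0.877% of all 17097 genes, and on the Y chromosome 3 of 12. The X-linked Kdm6a, Eif2s3x and Ddx3x were higher in AspClo arrays. Their differences were 0.81, 0.50 and 0.25 in the Xist-high and 0.32, 0.06 and 0.19 in the Xist-low arrays. Hprt, also X-linked and past the test, was lower, with means of 9.83 log2 units in AspClo and 10.14 in Sulin arrays. Its difference was -0.42 in the Xist-high arrays. Kdm6a, Eif2s3x, Ddx3x and Hprt were named after their values were seen.

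Dleu2, a non-coding RNA that hosts miR-15a and miR-16-1, had the smallest adjusted p of all genes and no overlap between the groups. It read 8.06, 7.95, 8.22 and 7.72 log2 units in the Xist-high arrays and 7.89 and 7.15 in AspClo 60 and 62, against 5.43 to 6.88 with a median of 6.29 in Sulin arrays. All 6 AspClo arrays were above all 10 Sulin arrays (2.96-fold, log2 difference 1.57, SE 0.19, adjusted p = 9.43e-05). Its 3 probe sets had the same sign. The difference was 1.73 in Xist-high and 1.25 in Xist-low arrays, where it had an adjusted p of 0.0597 with AspClo 60 and 62 alone. Vehicle arrays read 6.12 to 7.43, and the difference from vehicle was 1.29 for aspirin with clopidogrel (adjusted p = 0.000771) and -0.28 for sulindac (adjusted p = 0.600), 2 comparisons that share the vehicle arrays.

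Osbpl3, Adgrv1 and Olfm3 fell without overlap between the groups. Osbpl3, an oxysterol-binding lipid transfer protein, read 4.43 to 5.53 log2 units with a median of 4.73 in AspClo arrays, against 6.19 to 8.27 with a median of 7.07 in Sulin arrays (difference -2.20, SE 0.50, adjusted p = 0.0292). Adgrv1, an adhesion G protein-coupled receptor, read 4.78 to 6.07 in AspClo and 6.21 to 9.07 in Sulin arrays (difference -2.65, SE 0.65, adjusted p = 0.0464). Both were as low in AspClo 60 and 62, with differences of -2.07 and -2.52, as in the Xist-high arrays, with -2.26 and -2.71. Osbpl3 and Adgrv1 had adjusted p of 0.339 and 0.390 with AspClo 60 and 62 alone, and of 0.0338 and 0.0684 with the Xist-high arrays alone. In vehicle arrays both spread widely, from 4.91 to 8.66 log2 units for Osbpl3 and from 4.61 to 9.56 for Adgrv1. Olfm3, a secreted olfactomedin, averaged 5.25 ± 0.35 in AspClo and 6.51 ± 0.32 log2 units in Sulin arrays (SD, n = 6 and 10, adjusted p = 0.00172), with -1.46 in the Xist-high and -0.86 in the Xist-low arrays. Its adjusted p was 0.242 with AspClo 60 and 62 alone. Of 3 probe sets each, 2 had that sign for Olfm3 and 2 for Osbpl3. Adgrv1 lost its call in 12 of the 16 fits that left out 1 array and Osbpl3 in 8, while Olfm3 and Dleu2 kept theirs in all 16.

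Igfals and Cyp2c37 rose, also without overlap. Igfals, the liver protein that keeps IGF-1 in its circulating complex, read 9.64 to 10.30 log2 units in AspClo and 7.92 to 9.53 in Sulin arrays (2.05-fold, difference 1.04, SE 0.23, adjusted p = 0.0256). It differed by 1.18 in the Xist-high and 0.76 in the Xist-low arrays, the second not past the test alone (adjusted p = 0.479). Igfals was the 1 called member among 15 genes of the growth hormone and IGF axis. Socs2, a STAT5-induced feedback inhibitor of the growth hormone receptor, had a difference of 1.38 and an adjusted p of 0.0839. Cyp2c37, a pericentral cytochrome P450, read 11.79 to 12.29 in AspClo and 9.89 to 11.77 log2 units in Sulin arrays (difference 1.28, SE 0.31, adjusted p = 0.0461). It differed by 1.29 and 1.26 in the Xist-high and Xist-low arrays, neither past the test alone (adjusted p = 0.0739 and 0.368). Vehicle arrays covered 10.09 to 12.06 log2 units of Cyp2c37, so they reached into both drug groups, and the call was lost in 13 of 16 fits without 1 array, that of Igfals in 4. Agt, the angiotensin precursor, was higher with 11.46 to 11.60 log2 units in AspClo against 10.69 to 11.38 in Sulin arrays (adjusted p = 0.0103), by 0.45 in the Xist-high and 0.37 in the Xist-low arrays. Tpmt, the thiopurine methyltransferase, was lower with 7.83 to 8.69 in AspClo against 9.01 to 9.53 in Sulin arrays (adjusted p = 0.00454), with differences of -1.06 and -0.76 in the Xist-high and Xist-low arrays. Agt and Tpmt were named after their values were seen.

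**Figure D3:**
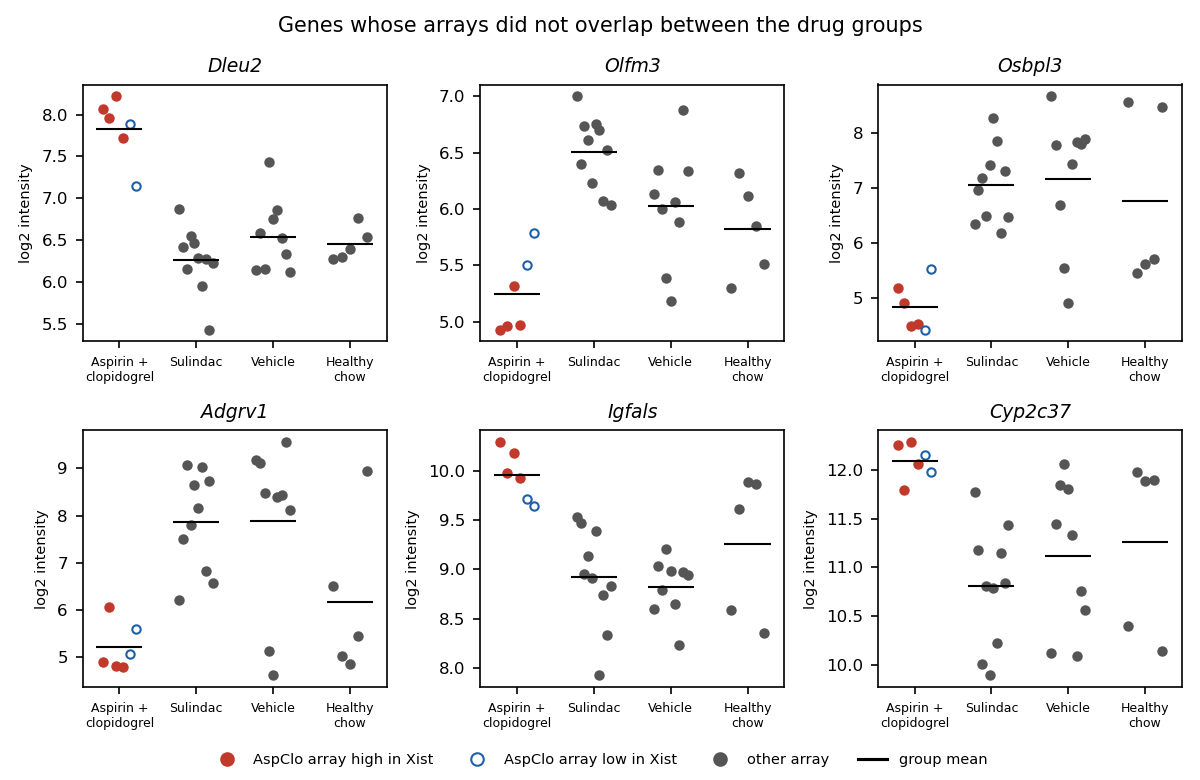
Log2 intensity of Dleu2, Olfm3, Osbpl3, Adgrv1, Igfals and Cyp2c37 in each array, by treatment, with points and bars as in the plot of sex-biased genes. Open and filled AspClo points lie on the same side of all sulindac points in each panel, while vehicle and healthy arrays spread over both levels for Osbpl3 (4.91 to 8.66 in vehicle) and Adgrv1 (4.61 to 9.56 in vehicle).

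Among 20 lipid droplet and lipid uptake genes, Fitm1 fell, Vldlr rose and 17 had negative differences, with a median of -0.29 that was -0.23 in the Xist-high and -0.20 in the Xist-low arrays. Fitm1, an endoplasmic reticulum protein that partitions triglyceride into droplets, read 7.40 to 9.67 log2 units in AspClo and 9.23 to 9.83 in Sulin arrays (difference -1.37, SE 0.21, adjusted p = 0.00172). The difference was -1.81 in the Xist-high and -0.48 in the Xist-low arrays, and the AspClo array that reached into the sulindac range was AspClo 62. Vldlr, the receptor for very low density lipoprotein, averaged 5.13 ± 0.25 and 4.77 ± 0.17 log2 units in AspClo and Sulin arrays (SD, adjusted p = 0.0299), close to the lower end of the intensity scale, with differences of 0.45 and 0.19 in the Xist-high and Xist-low arrays. Pparg, the nuclear receptor that drives fat storage genes, had a difference of -0.61 (adjusted p = 0.0779), with -0.61 in the Xist-high and -0.60 in the Xist-low arrays. Among 24 PPAR-alpha targets and fatty acid oxidation genes, Acot3 and Acadl rose, where 0.421% of all genes were called higher. Of the 24, 13 had negative differences. The 2 kinds of array went apart here, with 4 of 24 genes higher and a median of -0.11 in the Xist-high arrays, and 20 of 24 higher and a median of 0.23 in AspClo 60 and 62. Acot3, a peroxisomal acyl-CoA thioesterase that also stood on the female-biased list, read 10.27 to 11.38 in the Xist-high and 8.67 and 10.05 in the Xist-low arrays, against 5.25 to 10.87 log2 units in Sulin arrays (difference 3.07, SE 0.73, adjusted p = 0.0379). Acadl, the long-chain acyl-CoA dehydrogenase, differed by 0.16 (adjusted p = 0.0381), and by 0.12 in the Xist-high and 0.22 in the Xist-low arrays, neither of them past the test alone (adjusted p = 0.148 and 0.0660). Irs1, the insulin receptor substrate, rose by 0.70 (adjusted p = 0.0287), with 0.74 in the Xist-high and 0.62 in the Xist-low arrays. In fits without 1 array, Acadl lost its call in 12 of 16, Acot3 in 11, Irs1 in 7, Vldlr in 7 and Fitm1 in none.

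Of 22 platelet and megakaryocyte genes only F2r passed the test. F2r, the thrombin receptor PAR1, read 8.97 to 9.66 log2 units with a median of 9.45 in AspClo arrays, against 9.65 to 10.63 with a median of 10.43 in Sulin arrays, so that only 1 array of each group met at the edge. The difference was -0.92 (SE 0.18) with an adjusted p of 0.0102. It was -1.001 in the Xist-high and -0.76 in the Xist-low arrays, the second not past the test alone (adjusted p = 0.309). F2r stayed past the threshold in all 16 fits without 1 array. The genes of the platelet surface and granule were near the floor in both groups. P2ry12, the target of clopidogrel, averaged 4.63 ± 0.16 in AspClo and 4.56 ± 0.16 log2 units in Sulin arrays (SD, n = 6 and 10; difference 0.07, 95% interval -0.14 to 0.29, adjusted p = 0.882). Ptgs2, the inducible cyclooxygenase that aspirin and sulindac inhibit, averaged 4.30 ± 0.05 and 4.38 ± 0.06 (difference -0.07, 95% interval -0.14 to -0.01, adjusted p = 0.396). Ptgs1 was not analysed here. None of 27 prostanoid synthesis and receptor genes passed the test. Pla2g6, a calcium-independent phospholipase, had the smallest p among them, with a difference of -0.81 and an adjusted p of 0.0989. Of 29 drug-metabolising esterases, sulfoxide enzymes and flavin monooxygenases, Aox1 passed the test, an aldehyde oxidase that fell by 0.60 (adjusted p = 0.0339), by 0.89 in the Xist-high and 0.02 in the Xist-low arrays, and lost its call in 10 of 16 fits without 1 array. Msrb2, a methionine sulfoxide reductase, had a difference of -0.49 (adjusted p = 0.0623).

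Of 27 complement genes 3 passed the test, all of them lower with aspirin and clopidogrel, where 0.456% of all genes were called lower. Besides C6, C4bp, a soluble inhibitor of the classical pathway, fell by 0.24 (adjusted p = 0.0102) and C9, the pore-forming subunit, fell by 0.34 (adjusted p = 0.0192). The differences in the Xist-high and Xist-low arrays were -0.32 and -0.08 for C4bp and -0.38 and -0.27 for C9. Serpina12, the adipokine vaspin, fell by 1.44 (adjusted p = 0.0256), and Rarres1 fell by 0.997 without overlap between the groups (adjusted p = 0.0234). In the Xist-high and Xist-low arrays, Serpina12 differed by -1.89 and -0.54 and Rarres1 by -1.12 and -0.74. Pnldc1, a nuclease known for trimming piRNAs in the germ line, read 5.32 to 6.81 log2 units in AspClo and 6.57 to 8.36 in Sulin arrays (difference -1.50, SE 0.28, adjusted p = 0.00759), and differed by -1.81 in the Xist-high and -0.86 in the Xist-low arrays. Its vehicle mean was 6.55 ± 0.80 (SD, n = 9), with a difference from vehicle of -0.50 for aspirin with clopidogrel (adjusted p = 0.440) and a sulindac mean of 7.55 (adjusted p against vehicle = 0.0702). Serpinb1a, an inhibitor of neutrophil elastase, rose by 1.79 (adjusted p = 0.0359), by 2.22 in the Xist-high and 0.91 in the Xist-low arrays. In fits without 1 array, Serpinb1a lost its call in 7 of 16, Serpina12 in 5, Rarres1 in 3 and C9 in 2. Of 28 RNA splicing and nuclear RNA genes, 25 had positive differences with a median of 0.07. The median was 0.07 in the Xist-high and 0.10 in the Xist-low arrays. Against 0.421% of all genes called higher, 2 of the 28 rose. These were Ahctf1, a nuclear pore assembly factor, by 0.61 without overlap (adjusted p = 0.0256) and Sfpq, a paraspeckle splicing factor, by 0.38 (adjusted p = 0.0359). Ahctf1 differed by 0.64 and 0.57 in the Xist-high and Xist-low arrays, the second not past the test alone (adjusted p = 0.277). Sfpq differed by 0.33 and 0.50, neither past the test alone (adjusted p = 0.118 and 0.112). Sfpq lost its call in 10 of 16 fits without 1 array and Ahctf1 in 3, and 2 of the 3 probe sets of Sfpq were higher.

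With all 6 AspClo arrays no member passed the test in the lists of fibrosis, interferon and MHC class I genes. The same held for lipid-associated macrophage markers and for macrophage, monocyte and dendritic cell markers. Of 18 resident Kupffer cell markers only C6 passed, lower in AspClo arrays, a gene that also stood on the male-biased and complement lists. Of 42 collagen and fibrosis genes, 35 had negative differences, with a median of -0.18, where 8831 of all 17097 genes had negative differences. The median was -0.09 in the Xist-high arrays and -0.28 in AspClo 60 and 62. The mean level of the 42 genes was 6.02 and 6.05 log2 units in AspClo 60 and 62 and 6.10 to 6.40 in the Xist-high arrays, against 6.05 to 6.78 in Sulin arrays. The smallest p was that of Tgfbr2, a TGF-beta receptor, with a difference of -0.85 and an adjusted p of 0.0529. Of 15 markers of lipid-associated macrophages, 13 had negative differences with a median of -0.28. It was -0.21 in the Xist-high and -0.41 in the Xist-low arrays. Of 26 macrophage, monocyte and dendritic cell markers, 20 had negative differences, but the median was 0.11 in the Xist-high arrays and -0.66 in AspClo 60 and 62. The mean level of those 26 markers was 6.10 and 6.54 log2 units in AspClo 60 and 62, both below the 6.64 to 7.45 of the Sulin arrays, and 6.82 to 7.27 in the Xist-high arrays. Type I interferon response genes split in the same way, with medians of 0.24 and -0.38 over 37 genes. In whole liver, fewer cells of a type and less RNA per cell cannot be told apart. Among 29 genes of MHC class I and the interferon-gamma response, Irgm2 and Igtp, GTPases of intracellular defence, had differences of 0.57 and 0.73 with adjusted p of 0.0684 and 0.0812. In the 4 Xist-high arrays alone 22 of the 29 were higher and 5 passed the test, where 2.16% of all genes did: Irgm2, Igtp, Gbp7, Psmb10 and Tapbp. In AspClo 60 and 62, 9 of the 29 were higher and none passed.

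**Figure D4:**
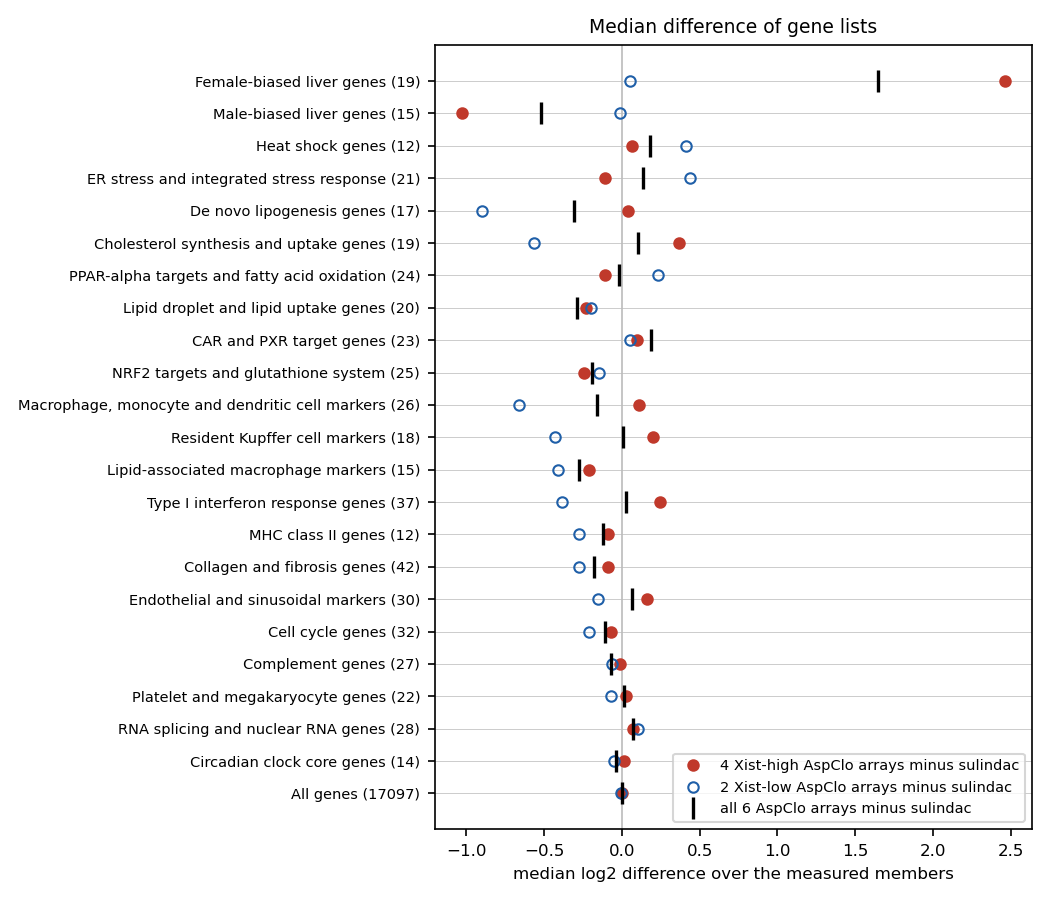
Median log2 difference from sulindac over the measured members of 22 gene lists and over all genes, for the 4 Xist-high AspClo arrays (filled), the 2 Xist-low AspClo arrays (open) and all 6 (bar); numbers in brackets are measured members. Female-biased genes stand at 2.46 in the Xist-high and 0.05 in the Xist-low arrays, while de novo lipogenesis genes stand at 0.04 and -0.90 and macrophage markers at 0.11 and -0.66.

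AspClo 60 and 62 lay above all Sulin arrays in several stress genes and below them in Gstm3, Nnt and Wdfy1. Set alone against the 10 Sulin arrays, they gave 51 calls among 17097 genes (0.298%), 23 higher and 28 lower, 6 of which were among the 150. The genes of these 51 that follow were named after their values were seen, apart from Nnt, Wdfy1 and the heat shock genes Hsph1, Hspa8 and Dnajb1. The inducible chaperone Hspa1b read 10.73 and 11.41 log2 units in AspClo 60 and 62 and 7.87 to 8.94 in the Xist-high arrays, against 7.48 to 9.36 in Sulin arrays. Hsph1, Dnajb1 and Hspa8, further members of the heat shock chaperone system, rose by 1.40, 1.39 and 0.40 in AspClo 60 and 62 and differed by 0.33, 0.15 and 0.06 in the Xist-high arrays. Ddit3, the stress transcription factor CHOP, read 7.20 and 8.61 in AspClo 60 and 62, against 5.56 to 6.20 log2 units in Sulin arrays. With all 6 arrays none of the 12 heat shock genes and none of the 21 genes of endoplasmic reticulum stress passed the test. The median over 17 genes of de novo lipogenesis was -0.90 in AspClo 60 and 62 and 0.04 in the Xist-high arrays, and cholesterol synthesis and uptake genes -0.56 and 0.37 over 19 genes, with no member called in any of these fits. The mean level of the lipogenesis genes was 9.59 and 9.64 log2 units in AspClo 60 and 62, against 9.82 to 11.04 in Sulin arrays. That of the cholesterol genes was 8.31 and 7.85, against 8.004 to 9.36, so that AspClo 60 lay within the sulindac range. Sqle, the squalene epoxidase, averaged 8.51 ± 1.39 log2 units in AspClo and 7.66 ± 1.06 in Sulin arrays (SD, adjusted p = 0.640). Gstm3, a glutathione transferase, read 7.80 and 8.03 in AspClo 60 and 62, below the 9.28 to 11.70 log2 units of the Sulin arrays.

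Nnt, the mitochondrial proton-pumping transhydrogenase that is truncated in C57BL/6J mice, read 9.70 and 9.92 log2 units in AspClo 60 and 62 and 10.65 to 10.92 in the Xist-high arrays, against 10.55 to 10.87 in Sulin and 9.14 to 10.01 in vehicle arrays. AspClo 60 and 62 lay among the vehicle arrays, AspClo 61, 63 and 64 among the Sulin arrays and AspClo 58 just above them. Over all 6 arrays the difference was -0.24 (adjusted p = 0.605). Wdfy1, an endosomal adaptor of Toll-like receptor signalling, read 5.04 and 6.32 log2 units in AspClo 60 and 62, 6.45 in AspClo 63 and 7.62 to 7.85 in the remaining 3, against 7.50 to 8.04 in Sulin and 4.80 to 5.70 in vehicle arrays. Its difference from sulindac was -0.88 (adjusted p = 0.0985). The difference from vehicle was 1.62 for aspirin with clopidogrel (adjusted p = 0.00118) and 2.50 for sulindac (adjusted p = 2.58e-07). The part of animal source in any difference was not tested.

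**Figure D5:**
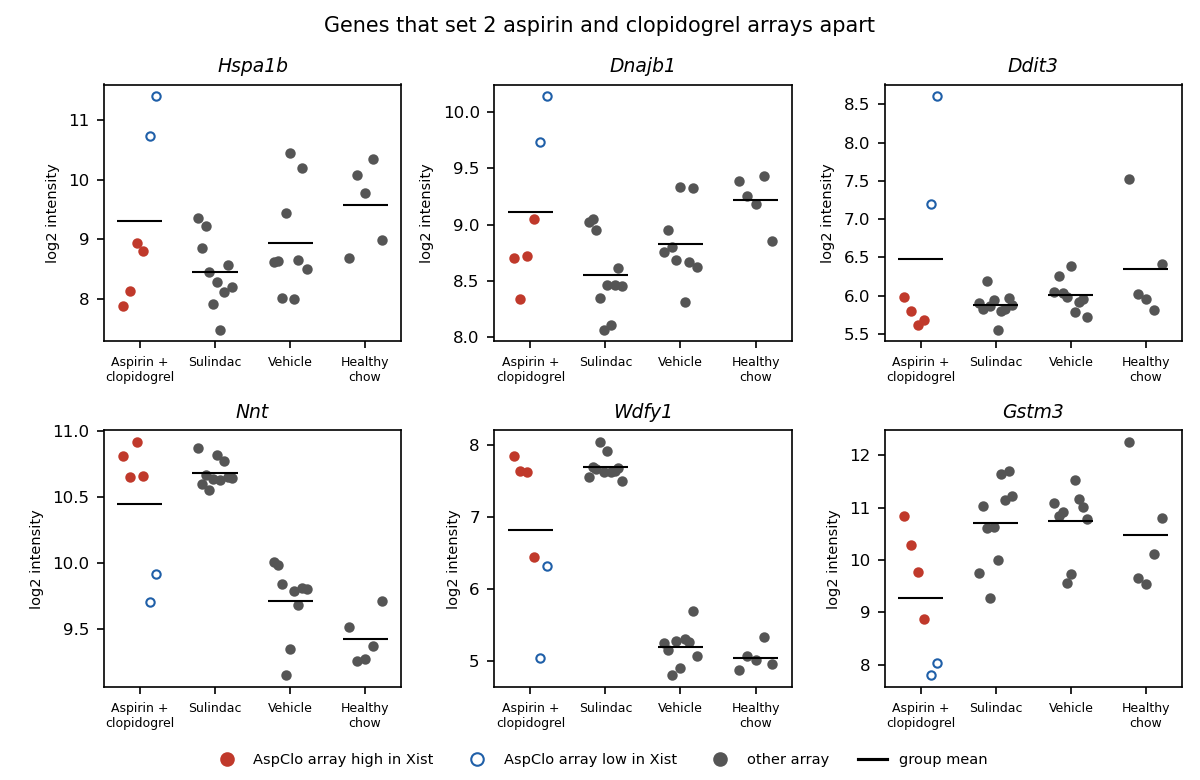
Log2 intensity of Hspa1b, Dnajb1, Ddit3, Nnt, Wdfy1 and Gstm3 in each array, by treatment, with points and bars as in the plot of sex-biased genes. The 2 open points, AspClo 60 and 62, lie above all sulindac arrays in Hspa1b (10.73 and 11.41), Dnajb1 and Ddit3, below them in Gstm3, and near the vehicle arrays in Nnt (9.70 and 9.92).

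Each drug group was also counted against vehicle. Aspirin with clopidogrel gave 335 calls against the 9 vehicle arrays (1.96%), 168 higher (0.983%) and 167 lower (0.977%). Sulindac gave 34 (0.199%), 20 higher (0.117%) and 14 lower (0.0819%). Both counts share the vehicle arrays, and the first includes the 4 Xist-high arrays. A count also depends on the number of arrays, 6 for AspClo and 10 for Sulin. The 2 counts therefore do not rank the drugs by size of effect. Without AspClo 60 and 62, the comparison with sulindac gave 370 calls (2.16%), which held 121 of the 150, or 80.7%. With the Xist kind as a covariate, 60 genes passed (0.351%), 9 of them among the 150: A2ml1, Anks1b, Cept1, Chd1l, Ctc1, Dleu2, Rbm12b1, Snapin and Uspl1. Only AspClo arrays were Xist-high, so this fit again sets AspClo 60 and 62 against sulindac, with another estimate of the spread. It is not a separate check. Among the 9 genes, Dleu2 had a difference of 1.25 in this fit (adjusted p = 0.0364). Snapin, a SNARE-associated protein of vesicle fusion, was lower in AspClo arrays, with 7.81 to 8.21 log2 units against 8.40 to 8.88 in Sulin arrays (-0.47 in the Xist-high and -0.77 in the Xist-low arrays).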

How the data were processed

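RNA from 20 mg of frozen non-tumour liver of each of 30 mice was hybridised to one-colour Affymetrix HT MG-430 PM arrays, per the labels. The authors deposited linear intensity values, which the series' design text says were normalised by RMA with quantile normalisation; RMA is also in the submitters' processing notes, with a version not given in the sources used here. Quantile normalisation gives all arrays nearly the same distribution, so a shift of most genes together would not be seen.

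Of 45141 probe sets, 104 were controls, 28898 carried 1 gene symbol, 551 several and 15588 none here. Symbols were updated through Entrez identifiers to RefSeq (28689 matched), and each of 17097 genes was read from its brightest probe set on average across the 30 arrays; 7180 genes had several. The values were taken to log2 with no offset and no filter on low values. In limma, 1 mean for each of 5 groups was estimated from the 30 arrays (version 3.58.1, R 4.3.3), with 25 residual degrees of freedom, empirical Bayes moderation and Benjamini-Hochberg adjustment over all genes, at an adjusted p of 0.05. All p-values are two-sided. The vehicle mean weighted its 9 arrays equally. The number of arrays limits precision. Data were simulated from these 17097 genes for aspirin with clopidogrel against sulindac. Of 200 genes changed by 0.5 on the log2 scale 70.9% were recovered, and 93.5% of those changed by 1. Only brighter genes were changed, and every AspClo array received an equal shift. The rates therefore do not apply to genes near the low end of the intensity scale. Nor do they apply to differences carried by the Xist-high arrays alone.

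Genes were named by rule: up to 15 higher and 15 lower by size of difference, called members of 60 gene lists, up to 3 members with the smallest p of each described list, drug targets, and sex chromosome genes. The members, lists and tests were chosen with earlier results of these data known. Alternatives changed the arrays in the fit, probe set choice, filter, centring, normalisation, offset, prior, weights and single arrays. An Xist level of 8 log2 units divided the AspClo arrays.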

Additional observations from a re-analysis of the deposited data

Results flagged for a closer look

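Among 94 sets of AspClo or Sulin values of named genes, 3 held an array far from the others of its group. Chance gives about 1 set in 20 where the values form 1 normal group. Several AspClo sets split 4 against 2 by Xist kind, as in Xist and Sult2a2, and there a single distant array can hardly be flagged. The 3 flags are therefore not read against that rate. Vldlr, the lipoprotein receptor, read 5.61 log2 units in AspClo 63, against 4.95 to 5.18 in the other 5 AspClo arrays. F2r, the thrombin receptor, read 8.97 in AspClo 63, against 9.41 to 9.66 in the others. Prom1, a progenitor and cholangiocyte marker, read 5.10 in Sulin 15, against 4.42 to 4.74 in the other 9 Sulin arrays.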

How the results depend on the processing

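The count of called genes moved with single arrays and with settings. Leaving out 1 array gave 54 to 270 calls against 150, 25 to 121 higher and 29 to 149 lower: 54 without AspClo 61, 77 without AspClo 64 or 58, 85 without AspClo 63, 74 without Sulin 20, 92 without Sulin 23, 84 without Sulin 25, 81 without Sulin 29, 98 without Sulin 15 and 270 without AspClo 62. Fitting only the 16 drug arrays gave 239 calls, 145 of them lower, and array weights gave 407, 180 higher and 227 lower. Testing only genes at or above the median level gave 121 lower genes. Centring each array on its median gave 93 higher and 63 lower genes against 72 and 78, and cyclic loess gave 104 and 84. Mean over probe sets, the probe set with the largest spread, an offset of 16 and a trended robust prior gave 145, 125, 137 and 132 calls. Named genes kept their direction under these settings. These further choices were made after seeing the data: AspClo 60 and 62 alone gave 51 calls, 23 higher and 28 lower, and the 4 Xist-high arrays alone 370, 188 higher and 182 lower. Xist kind as a covariate gave 60, 31 higher and 29 lower, and leaving out AspClo 63 and Sulin 15, both low in the clock gene Dbp, gave 48, 23 higher and 25 lower, 45 of them among the 150. Xist, Cyp3a16 and Eif2s3y turned to -0.12, -0.017 and 0.14 both with AspClo 60 and 62 alone and under the covariate. No paired analysis was possible because the labels give no replicate numbers shared between the groups. Levels near 4 to 5 log2 units lie at the low end of the intensity scale, where differences are compressed.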

Other observations

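1 array of each drug group stood apart in the clock gene Dbp. Dbp, a clock output transcription factor, read 5.30 log2 units in AspClo 63 and 5.29 in Sulin 15, against 7.70 to 10.20 in the other AspClo and 7.76 to 10.20 in the other Sulin arrays. Arntl, the activator that peaks when Dbp is low, read 7.11 and 7.17 in the same arrays. The range of Arntl in the other arrays is not given here, so these values do not show a shift. None of 14 core clock genes and none of 13 clock output genes passed the test between the drug groups, and the median differences of the lists were -0.04 and -0.15 on the log2 scale.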
